A study of Sus scrofa with 10 samples.

Results

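Semaphorins, plexins and neuropilins form one signalling system, in which semaphorins are the ligands, plexins the receptors and neuropilins the co-receptors. The genes were chosen by symbol, as every row whose symbol begins with SEMA3 to SEMA7 or with PLXNA, PLXNB, PLXNC or PLXND, or is NRP1 or NRP2. The symbol table holds 31 such genes and 30 of them had a row, among 12378 rows with a symbol in the expression table: 19 semaphorins, 9 plexins and 2 neuropilins. SEMA3A was the gene without a row and is not analysed here. No measured value entered the choice of a gene, but the family was taken up with results of the same CTEPH and Sham comparison known, so counts of its genes are a description and not independent support for a family response.

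The tissue was right ventricular muscle of pigs, taken as biopsies. The CTEPH group was 5 pigs of a model of chronic thromboembolic pulmonary hypertension, in which obstructed lung arteries load the right ventricle, and the Sham group was 5 control pigs. Each library has its own number in the labels and was taken as 1 pig: s1, s3, s4, s5 and s9 for CTEPH and s2, s6, s7, s8 and s10 for Sham. The sources used here do not give strain, age, sex, batch or the time after surgery.

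Semaphorins were first known for steering growing axons. A semaphorin that binds a plexin switches on the plexin's intracellular domain, which acts on small GTPases and so on the actin cytoskeleton and on integrin adhesion. Secreted class 3 semaphorins mostly need a neuropilin beside the plexin, and neuropilins also bind vascular endothelial growth factors (VEGF). In the heart the system is known for patterning the outflow tract, the vessels and the sympathetic nerves.

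Values are the deposited log2 expression values, 1 per gene and library, brought by the authors' normalization to nearly the same distribution in every library. They are not scaled by gene length, so a gene is compared between pigs and not with another gene. Fold changes are CTEPH minus Sham on this log2 scale ± the fit's standard error, and genes with an adjusted p under 0.05 (limma, Benjamini-Hochberg over every gene of the table) are said to have risen or fallen. Most values could be read back as whole counts, and relative depth from those counts was 0.724 to 1.53 in CTEPH and 0.769 to 1.45 in Sham, with CTEPH library s9 the shallowest. The cardiac troponin gene TNNT2, 1 of 11 measured cardiomyocyte markers, stood between 18.44 and 19.26 in every library. It is given as a check of the labelled tissue and not as a measure of steady cardiomyocyte content. In a library of whole tissue, fewer cells of a type and less RNA per cell cannot be told apart.

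Of the 30 genes, 4 fell in the CTEPH ventricle and 0 rose. The plexin gene PLXNB1 and the semaphorin genes SEMA3G, SEMA4C and SEMA6A fell by 37.6% to 44.9% of their Sham level. Over all genes, 4.62% were called, 1.79% as lower and 2.83% as higher, against 13.3% of the 30, all of them lower. The count was 1 without Sham library s6 or s8 and 2 without CTEPH library s5 or Sham library s7, where 2.72% to 3.10% of all genes were called, and 6 without CTEPH library s9, where 6.15% were. At an unadjusted p under 0.05 there were 8 of the 30 (26.7%, against 20.3% of all genes; limma), 6 lower and 2 higher. The family did not shift as a whole: 15 genes had a fold change below 0 and 15 above, with a median of -0.03, which is also the median over all genes.

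**Figure D1:**
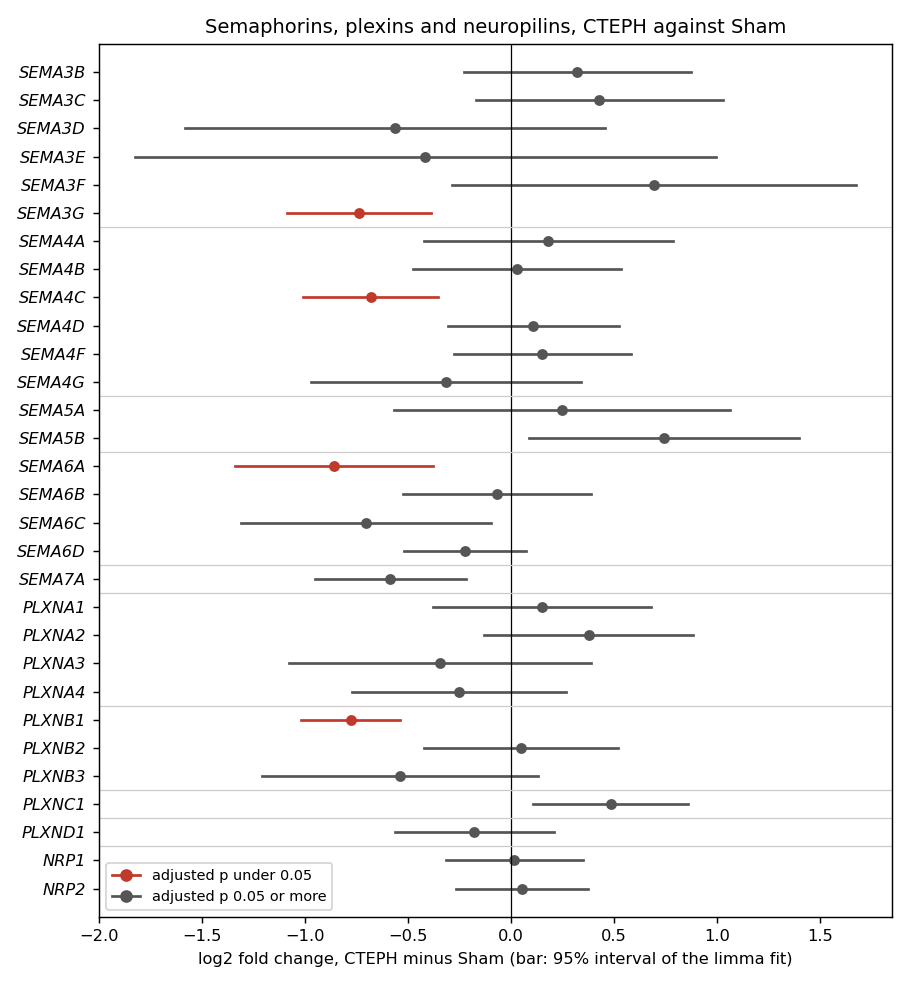
Log2 fold change (CTEPH minus Sham, horizontal axis) of the 30 genes in order of class, with the 95% interval of the limma fit as bars and called genes in red. The 4 red genes, SEMA3G, SEMA4C, SEMA6A and PLXNB1, all lie below 0, and both neuropilins sit close to 0.

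In 4 genes the groups did not overlap, 3 lower in CTEPH (PLXNB1, SEMA3G and SEMA4C) and 1 higher (SEMA5B). Over all genes the groups did not overlap for 6.57%, with 2.87% lower and 3.7% higher in CTEPH. Without s9 the count was 7, against 10.1% of all genes. The fourth called gene, SEMA6A, had 1 CTEPH library within the Sham range.

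PLXNB1 encodes plexin B1, the receptor of the membrane-bound semaphorin 4D, and was the member with the smallest p. Its log2 values were 12.65, 12.57, 12.80, 12.63 and 12.43 in CTEPH libraries s1, s3, s4, s5 and s9. In Sham libraries s2, s6, s7, s8 and s10 they were 13.42, 13.45, 13.31, 13.34 and 13.46. The 2 groups formed separate tight clusters, with the highest CTEPH library below the lowest Sham library. CTEPH averaged 12.62 ± 0.133 and Sham 13.40 ± 0.0679 (SD over 5 pigs each). The difference was -0.78 ± 0.11 (limma, Benjamini-Hochberg adjusted p = 0.00163). On the linear scale CTEPH stood at 58.2% of Sham, with a 95% interval of the ratio from 0.493 to 0.688. The gene remained called in each of 10 refits that left out 1 library, with a fold change of -0.83 to -0.73 and an adjusted p of at most 0.00753 (limma, Benjamini-Hochberg). In the Sscrofa11.1 build it spans bases 31113910 to 31140133 of chromosome 13.

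**Figure D2:**
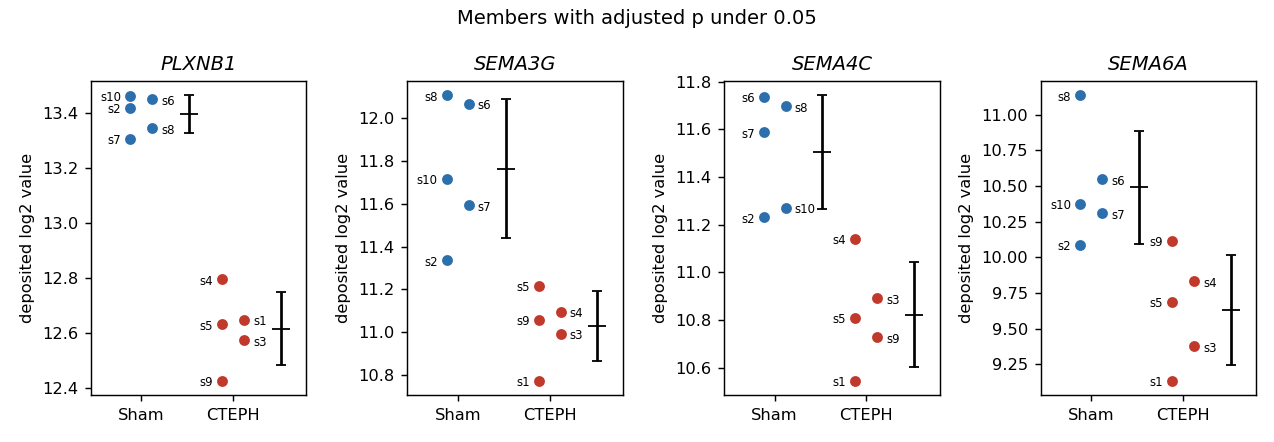
Deposited log2 value of PLXNB1, SEMA3G, SEMA4C and SEMA6A (vertical axes, which do not start at 0) in each Sham (blue) and CTEPH (red) library, with the mean and SD of each group in black. For PLXNB1 the CTEPH libraries lie between 12.43 and 12.80 and the Sham libraries between 13.31 and 13.46; for SEMA6A, CTEPH library s9 at 10.12 reaches above Sham library s2 at 10.09.

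The other B plexins did not pass. PLXNB2, a receptor of semaphorin 4C, was at 11.46, 12.33, 12.16, 11.78 and 11.02 in s1, s3, s4, s5 and s9 and at 11.50 to 11.89 in Sham. The CTEPH libraries lay on both sides of the narrow Sham range, and the fold change was 0.05 ± 0.22 (limma, Benjamini-Hochberg adjusted p = 0.933; 95% interval of the ratio 0.746 to 1.43). PLXNB3, a receptor of semaphorin 5A, was low, with recovered counts of 12 to 37 in CTEPH and 14 to 56 in Sham, and a fold change of -0.54 ± 0.31 (adjusted p = 0.361).

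Within each library, PLXNB1 exceeded PLXNB2 on the log2 scale by 0.87 ± 0.459 in CTEPH and by 1.69 ± 0.12 in Sham (SD over 5 pigs each), where only the change of this difference between groups can be read because the values are not per length. That change of -0.83 had a two-sided exact permutation p of 0.00794, the smallest that 252 assignments of libraries allow. It was 1 of 47 pairs of members of the same class compared in this way, and its adjusted p was 0.0933 (Benjamini-Hochberg). The pairs SEMA3B with SEMA3G, SEMA4C with SEMA4F and SEMA6A with SEMA6D had the same p. Each of these 4 pairs holds 1 called gene, so its p is not separate from that gene's fall. Of the 47 pairs, 10 had an unadjusted exact permutation p under 0.05, and 0 passed after adjustment. Pairs share genes, so these are not 10 separate results, and the comparison was added after the values were seen. A pair could pass only together with others, at least 8 at the smallest p, or more than 8 where some had larger p-values. The smallest p was reached by 4. A lone pair could therefore not be called in this comparison, however far apart its members were.

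SEMA4D encodes the main ligand of plexin B1. It was at 11.26, 12.18, 11.78, 11.35 and 11.63 in s1, s3, s4, s5 and s9 and at 12.02, 11.32, 11.40, 11.33 and 11.60 in s2, s6, s7, s8 and s10. The ranges overlapped widely, and the fold change was 0.11 ± 0.19 (limma, Benjamini-Hochberg adjusted p = 0.803; 95% interval of the ratio 0.807 to 1.44). The receptor tyrosine kinases MET and ERBB2 can associate with B plexins. ERBB2 was lower in every CTEPH library (10.53 to 11.07) than in any Sham library (11.13 to 11.25), a difference of -0.41 ± 0.13 that did not pass (adjusted p = 0.0802). MET was at -0.64 ± 0.41 (adjusted p = 0.423).

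SEMA3G encodes a secreted semaphorin known from arterial endothelium, which signals through neuropilin 2. Its values were 10.77, 10.99, 11.095, 11.22 and 11.06 in CTEPH libraries s1, s3, s4, s5 and s9 and 11.34, 12.07, 11.59, 12.11 and 11.72 in Sham libraries s2, s6, s7, s8 and s10. The gap between the groups was narrow, between s5 at 11.22 and s2 at 11.34. The fold change was -0.74 ± 0.16 (limma, Benjamini-Hochberg adjusted p = 0.0217), which puts CTEPH at 60.0% of Sham (95% interval of the ratio 0.471 to 0.765). The adjusted p was 0.0607, 0.0531 and 0.0510 without Sham library s6, s8 or s10. The gene lies on chromosome 13 from 34574014 to 34585686.

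The 5 other secreted semaphorins measured did not pass. SEMA3F, which encodes a neuropilin 2 ligand that repels vessels and axons, was at 9.55, 8.75, 9.25 and 8.70 in s1, s3, s4 and s5 and at 6.79 in s9, against 7.20 to 8.66 in Sham. All CTEPH libraries but s9 stood above every Sham library, and s9 stood below all of them. Its recovered counts were 388, 197, 472 and 227 in s1, s3, s4 and s5 and 41 in s9, and 58 to 289 in Sham. The fold change was 0.70 ± 0.46 (limma, Benjamini-Hochberg adjusted p = 0.428) and became 1.1505 with an adjusted p of 0.0498 when s9 was left out. SEMA3B, its neighbour on chromosome 13, was highest in s4 at 9.67 and s3 at 9.23 and was otherwise at 8.23 to 8.71 (fold change 0.32 ± 0.26, adjusted p = 0.527).

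SEMA3C, which acts in outflow tract septation, was at 10.88, 11.62, 11.74, 12.64 and 11.90 in s1, s3, s4, s5 and s9 and at 10.81 to 11.80 in Sham (0.43 ± 0.28, adjusted p = 0.423, limma with Benjamini-Hochberg). SEMA3D, a guide of endothelial and neural crest cells, was at 6.496 to 7.18 in Sham but at 4.35 in s3, where 9 counts were recovered against 34 to 88 in the other CTEPH libraries (-0.56 ± 0.47, adjusted p = 0.549). SEMA3E, whose product binds plexin D1 without a neuropilin, was close to the detection limit, with 3 to 14 counts in CTEPH and 1 to 21 in Sham. Its interval of the ratio, 0.281 to 2.0, is too wide to show a change of moderate size.

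SEMA4C encodes a transmembrane ligand of plexin B2 and fell with little spread in either group. The values were 10.55, 10.89, 11.14, 10.81 and 10.73 in CTEPH libraries s1, s3, s4, s5 and s9. In Sham libraries s2, s6, s7, s8 and s10 they were 11.23, 11.74, 11.59, 11.70 and 11.27. No CTEPH library reached a Sham library, and the fold change was -0.68 ± 0.15 (limma, Benjamini-Hochberg adjusted p = 0.0235), or 62.4% of Sham (95% interval of the ratio 0.497 to 0.783). Without CTEPH library s5 or Sham library s6, s7 or s8 the adjusted p was 0.0509, 0.0678, 0.0611 and 0.0598. The gene lies on chromosome 3 from 56750745 to 56760835.

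The 5 remaining class 4 genes did not pass, and their fold changes lay between -0.32 and 0.18. SEMA4A, whose product acts on immune cells, was at 0.18 ± 0.28, SEMA4F at 0.15 ± 0.20 and SEMA4G at -0.32 ± 0.30 (limma, Benjamini-Hochberg adjusted p = 0.765, 0.722 and 0.611). SEMA4B was at 9.22 to 9.54 in 4 CTEPH libraries and at 10.37 in s1, against 9.19 to 9.98 in Sham. Its fold change was 0.03 ± 0.23 (adjusted p = 0.961) and turned to -0.17 without s1.

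Class 6 semaphorins are transmembrane ligands of A plexins, and all 4 had a fold change below 0. SEMA6A fell and had the lowest fold change of the family, -0.86 ± 0.22 (limma, Benjamini-Hochberg adjusted p = 0.0455), or 55.1% of Sham (95% interval of the ratio 0.395 to 0.768). Its values were 9.14, 9.38, 9.83, 9.69 and 10.12 in s1, s3, s4, s5 and s9 and 10.09, 10.55, 10.31, 11.14 and 10.38 in s2, s6, s7, s8 and s10. The groups met at s9 and s2, and Sham library s8 stood highest.

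The recovered counts of SEMA6A were 289, 303, 686, 452 and 398 in s1, s3, s4, s5 and s9 and 648, 1036, 501, 861 and 564 in s2, s6, s7, s8 and s10. Divided by relative depth they averaged 406 ± 104 for CTEPH and 731 ± 205 for Sham (SD over 5 pigs each), a ratio of 0.555. With voom on the recovered counts the adjusted p was 0.0348 (limma, Benjamini-Hochberg). SEMA6A was the least stable of the called genes, since 8 of the 10 refits without 1 library gave an adjusted p of 0.0674 to 0.0994. Only those without s2 or s9 stayed below the threshold. The gene lies on chromosome 2 from 120560095 to 120687597.

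SEMA6C was at 9.02, 9.64, 10.27, 8.82 and 8.93 in s1, s3, s4, s5 and s9 and at 9.50 to 10.56 in Sham. Libraries s1, s5 and s9 lay below all Sham libraries while s3 and s4 lay within their range, and the fold change of -0.70 ± 0.28 did not pass (limma, Benjamini-Hochberg adjusted p = 0.178). SEMA6D, a ligand of plexin A1 in the developing heart, was at -0.22 ± 0.14 (adjusted p = 0.391), and SEMA6B at -0.07 ± 0.21 (adjusted p = 0.896).

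SEMA7A and PLXNC1 encode a ligand and its receptor, and their fold changes had opposite signs. SEMA7A, the membrane-anchored semaphorin that also engages integrins, was at 9.58, 9.47, 9.98, 9.49 and 9.42 in s1, s3, s4, s5 and s9. In Sham it was at 10.27, 10.24, 10.38 and 10.30 in s2, s6, s7 and s8 and at 9.67 in s10. The CTEPH libraries were low, but s10 stood below CTEPH library s4, and the fold change of -0.59 ± 0.17 did not pass (limma, Benjamini-Hochberg adjusted p = 0.0704). Without s10 it was -0.71 with an adjusted p of 0.0340.

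PLXNC1, found on leukocytes among other cells, was at 9.004, 9.15, 8.89 and 9.08 in s1, s3, s4 and s5 and at 8.45 in s9, against 8.14, 8.51, 8.42, 8.59 and 8.49 in s2, s6, s7, s8 and s10. All CTEPH libraries but s9 exceeded every Sham library, and s9 lay within the Sham range. The fold change was 0.48 ± 0.17 (limma, Benjamini-Hochberg adjusted p = 0.137), and 0.60 with an adjusted p of 0.0450 without s9. Of 11 measured macrophage and monocyte markers, 10 also had a fold change above 0, and LYZ was the only one called (9.09%, against 4.62% of all genes). The marker below 0 was CD68, at -0.50 ± 0.20 (limma, Benjamini-Hochberg adjusted p = 0.175), named after its values were seen. At an unadjusted p under 0.05 (limma) 3 were higher and 1 lower (36.4% in all, against 20.3% of all genes). The mean level of the 11 markers per library, taken around each gene's mean over the 10 libraries, was -0.17 to 0.69 in CTEPH and -0.56 to 0.28 in Sham. Of 11 T and NK cell markers, 7 had a fold change above 0 and 4 below, with 0 at an unadjusted p under 0.05 (limma). The part of either list in the PLXNC1 values was not tested.

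**Figure D3:**
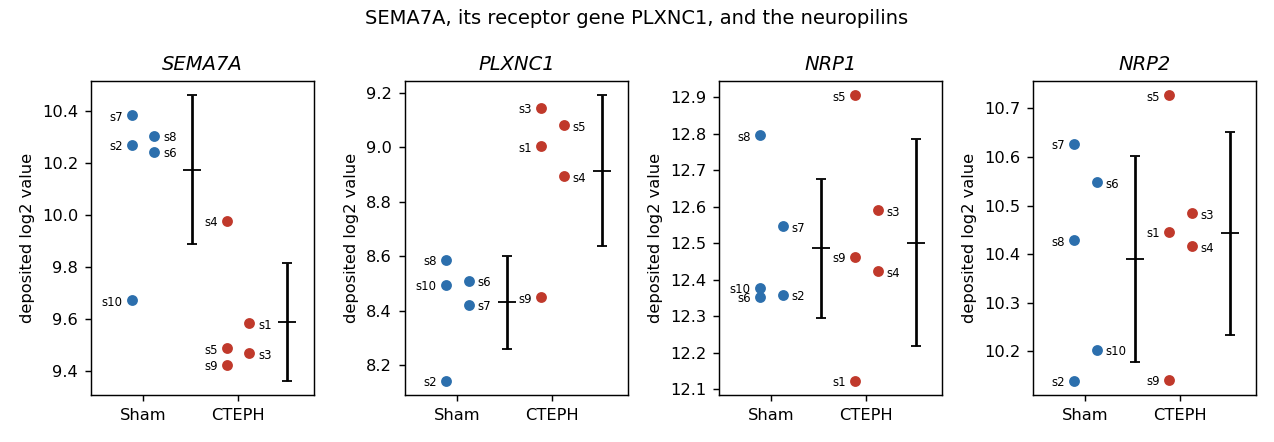
Deposited log2 value of SEMA7A, PLXNC1, NRP1 and NRP2 (vertical axes, which do not start at 0) in each Sham (blue) and CTEPH (red) library, with the mean and SD of each group in black. SEMA7A is low in all CTEPH libraries and in Sham library s10, PLXNC1 is high in all CTEPH libraries except s9, and the neuropilins overlap.

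Class 5 semaphorins carry thrombospondin repeats and span the membrane. SEMA5B was higher in every CTEPH library, at 5.95, 5.37, 5.97, 5.36 and 6.13 in s1, s3, s4, s5 and s9, than in any Sham library, at 4.498, 5.21, 4.94, 5.11 and 5.30 in s2, s6, s7, s8 and s10. These were low counts, 19 to 53 in CTEPH and 11 to 28 in Sham, and the fold change of 0.74 ± 0.30 did not pass (limma, Benjamini-Hochberg adjusted p = 0.189). SEMA5A spread widely in both groups, from 7.32 to 9.02 in CTEPH and from 6.91 to 8.62 in Sham (0.25 ± 0.38, adjusted p = 0.765).

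Class A plexins pair with neuropilins to receive secreted semaphorins, and 0 of 4 passed. PLXNA1 was at 0.15 ± 0.25, PLXNA2 at 0.38 ± 0.24, PLXNA3 at -0.34 ± 0.34 and PLXNA4 at -0.25 ± 0.24 (limma, Benjamini-Hochberg adjusted p = 0.779, 0.405, 0.622 and 0.605). In each of these 4 genes s9 was the lowest of the CTEPH libraries. The gap was widest in PLXNA3, which stood at 7.78 in s9 and at 9.05 to 10.08 in the other CTEPH libraries, against 9.40 to 9.78 in Sham. PLXND1, the endothelial receptor of semaphorin 3E, was at 12.06 to 12.69 in CTEPH and 12.09 to 12.84 in Sham (-0.18 ± 0.18, adjusted p = 0.629).

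The neuropilins differed less between groups than between pigs. NRP1 was at 12.12, 12.59, 12.42, 12.91 and 12.46 in s1, s3, s4, s5 and s9 and at 12.36, 12.35, 12.55, 12.80 and 12.38 in s2, s6, s7, s8 and s10. The fold change was 0.01 ± 0.15 (limma, Benjamini-Hochberg adjusted p = 0.972), with a 95% interval of the ratio from 0.802 to 1.27. NRP2 was at 10.14 to 10.73 in CTEPH and 10.14 to 10.63 in Sham, with a fold change of 0.05 ± 0.15 (adjusted p = 0.881) and an interval of 0.83 to 1.30. Both intervals exclude a fall as large as the one estimated for SEMA3G.

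Neuropilins are also co-receptors of the VEGF receptors. Of 8 genes of VEGF ligands and receptors, 1 fell and 0 rose, with a median fold change of -0.37, against -0.03 over all genes. That is 12.5%, against 4.62% of all genes called, and rests on 1 gene of a short list. FLT1 fell by 0.94 ± 0.22 on the log2 scale (limma, Benjamini-Hochberg adjusted p = 0.0296), and lost its call in 5 of the 10 refits, those without s3, s4, s6, s7 or s8. At an unadjusted p under 0.05 there were 4 (50%, against 20.3% of all genes; limma), 3 lower and 1 higher. The higher one was the placental growth factor gene PGF at 0.58 ± 0.23 (limma, Benjamini-Hochberg adjusted p = 0.177), which was named after its values were seen. KDR, FLT4, VEGFA and VEGFC were at -0.36 ± 0.22, -0.76 ± 0.32, -0.38 ± 0.23 and 0.0040 ± 0.20 (adjusted p = 0.389, 0.209, 0.392 and 0.995).

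SEMA3G and SEMA6A are known from endothelium among other cells, so the endothelial markers are given beside them. Of 13 measured endothelial markers 12 had a fold change below 0 (92.3%, against 53.6% of all genes), with a median of -0.32. TEK was the only one called (7.69%, against 4.62% of all genes), at -0.78 ± 0.17 (limma, Benjamini-Hochberg adjusted p = 0.0205), with its call lost without s3, s4, s6, s8 or s10. At an unadjusted p under 0.05 there were 4 (30.8%, against 20.3% of all genes; limma), and the groups did not overlap for 0, against 6.57% of all genes. The mean marker level was -0.31, -0.24, 0.04, -0.29 and -0.09 in s1, s3, s4, s5 and s9 and -0.22, 0.35, 0.19, 0.61 and -0.04 in s2, s6, s7, s8 and s10. Within Sham, s8 was highest and s2 lowest for the markers and for both genes. Within CTEPH the orders differed, since s4 was highest for the markers, s5 for SEMA3G and s9 for SEMA6A. The marker levels of s1, s3 and s5 were below every Sham library. That of s9 was above s2 only, and that of s4 was above s2 and s10. SEMA3G was below every Sham library in each of these CTEPH libraries. None of these markers had a count of 0 in any library, and VWF and SOX17 are not analysed here. Their part in the fall of SEMA3G and SEMA6A was not tested.

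Genes that carry semaphorin signals inside the cell, or sit beside the receptors, were read from a list of 48, of which 40 were measured. Of these, 3 rose, 3 fell and 34 did not pass, with a median fold change of 0.09, so that 15.0% were called, against 4.62% of all genes. At an unadjusted p under 0.05 there were 18 (45%, against 20.3% of all genes; limma), 13 higher and 5 lower. Without s4, s7 or s10, 3 in all were called, where 2.56% to 2.95% of all genes were. The hyaluronan receptor gene CD44 was at 12.96, 11.31, 11.43, 11.07 and 10.65 in s1, s3, s4, s5 and s9 and at 9.45 to 10.20 in Sham. It rose by 1.73 ± 0.34 (limma, Benjamini-Hochberg adjusted p = 0.0133). ARF6, a small GTPase of membrane traffic that acts below plexin D1, rose by 0.75 ± 0.15 (adjusted p = 0.0151). CFL1, encoding the actin-severing cofilin, rose by 0.65 ± 0.15 (adjusted p = 0.0274).

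CHL1 and L1CAM encode neural adhesion molecules that can join neuropilin complexes, and both fell. CHL1 was at 7.24, 6.67, 7.25, 7.57 and 8.64 in s1, s3, s4, s5 and s9 and at 8.43 to 9.83 in Sham, a fold change of -1.62 ± 0.35 (limma, Benjamini-Hochberg adjusted p = 0.0189). L1CAM fell by 0.90 ± 0.21 on the log2 scale (adjusted p = 0.0302), with the highest CTEPH library at 8.48 and the lowest Sham library at 8.57. TIAM1, an activator of the GTPase RAC1, fell by 0.94 ± 0.22 (adjusted p = 0.0303). CD44 and ARF6 kept their calls in each of the 10 refits, and CHL1 lost its call without s4 (adjusted p = 0.0505). L1CAM lost its call without s3, s5, s6, s7, s8 or s10, CFL1 without s2, s3, s4, s7, s8 or s10, and TIAM1 without s2, s3, s4, s5, s6, s7 or s10.

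Schwann cell and neural markers, a list that also holds L1CAM, are given beside these adhesion genes. Of 8 measured, SOX10 and L1CAM fell and 0 rose, so that 25% were called, against 4.62% of all genes. Fold changes were below 0 for 5 and above 0 for 3 (CRYAB at 0.57, NCAM1 at 0.48 and GFRA3 at 0.11, named after their values were seen), with a median of -0.87, and none had a count of 0 in any library. Their mean level was -0.62 to 0.14 in CTEPH and -0.05 to 0.77 in Sham, and their part in the CHL1 and L1CAM values was not tested. Other families of guidance genes were counted for scale. Of 14 measured ephrins and EPH receptors 0 passed, and 3 (21.4%) had an unadjusted p under 0.05 (limma), against 20.3% of all genes. Their groups did not overlap for 2 (14.3%), against 6.57% of all genes. Of 15 slits, netrins and their receptors, 5 (33.3%) had an unadjusted p under 0.05 (limma), and the groups of 1 (6.67%) did not overlap. In that list 2 genes fell (13.3%, against 4.62% of all genes called). These were NTN5, at -0.86 ± 0.22, which lost its call in 7 of the 10 refits (without s2, s3, s5, s6, s7, s8 or s9), and RGMA, at -0.96 ± 0.20, which kept it in each (limma, Benjamini-Hochberg adjusted p = 0.0438 and 0.0185).

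The remaining marker lists give the setting of these values. All 17 measured cell division genes rose (median fold change 2.83). None of 11 cardiomyocyte, 11 fibroblast, 5 endocardial, 11 T and NK cell, 2 B cell and 2 erythroid markers was called by limma, with 3, 3, 1, 0, 0 and 0 at an unadjusted p under 0.05. The 3 cardiomyocyte markers were all lower. Of the fibroblast markers 1 was lower and 2 were higher, and the endocardial marker was higher. CNN1 rose among 13 smooth muscle and pericyte markers, CIDEA fell among 5 adipocyte markers and RELN fell among 7 lymphatic endothelial markers. That was 7.69%, 20% and 14.3% of those lists, against 4.62% of all genes. In these lists, in that order, fold changes were below 0 for 7, 3 and 6 markers and above 0 for 6, 2 and 1. At an unadjusted p under 0.05 (limma) 3, 1 and 4 were lower and 3, 1 and 1 higher.

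Library s9 was the lowest of the CTEPH group in more members than any other library. It held the lowest CTEPH value in 13 of the 30 genes (43.3%), against 21.2% of all genes. Library s1 held the lowest in 9 (30%), against 23.9% of all genes, and s4, the deepest library, in 0. Without s9, 6 members were called, the same 4 lower and PLXNC1 and SEMA3F higher, while 6.15% of all genes were. Leaving out s1 gave that same share of all genes, and 3 called members. Groups did not overlap for 7 members without s9 (23.3%), against 10.1% of all genes, with 9 libraries instead of 10 to separate. The part of depth in these values was not tested. The spread of CTEPH exceeded that of Sham in 18 of 30 members (60.0%), against 69.6% of all genes. It did so most in PLXNA3, with SDs of 0.896 and 0.161, and in SEMA3D, with 1.20 and 0.28.

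**Figure D4:**
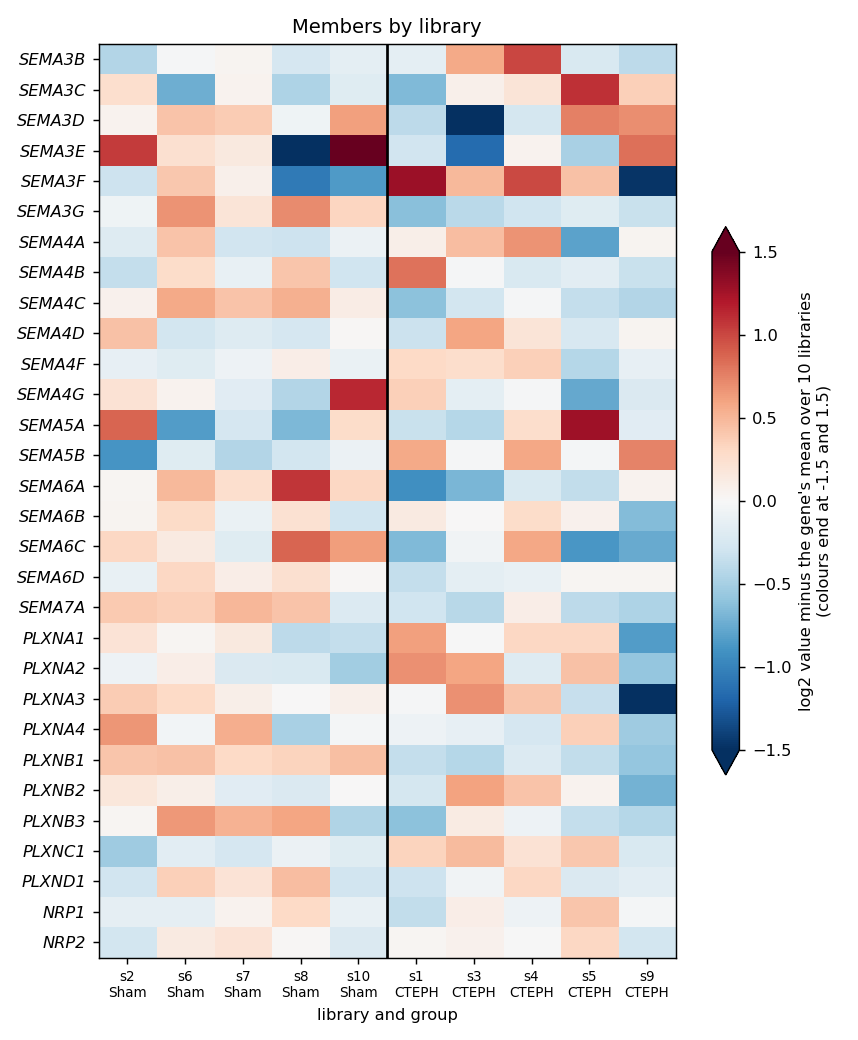
Deposited log2 value of each gene minus its mean over the 10 libraries (colour, ending at -1.5 and 1.5), by library (columns, Sham left of the line and CTEPH right) and gene (rows, in order of class). PLXNB1, SEMA3G and SEMA4C are low across the CTEPH libraries, whereas in library s9 the class A plexins, PLXNB2 and SEMA3F are low.

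By position, 7 of the 30 genes lie on chromosome 13, and 4 of these lie close together. PLXNB1 is followed after 1501 kb by SEMA3F, which is 65.9 kb from SEMA3B, and SEMA3G follows after a further 1.82 Mb. The outer genes of this stretch, PLXNB1 and SEMA3G, fell, and the inner genes had fold changes of 0.70 and 0.32 that did not pass. On chromosome 9, SEMA3D, SEMA3E and SEMA3C lie within one stretch, with gaps of 1.20 Mb and 2.17 Mb, and none passed.

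**Figure D5:**
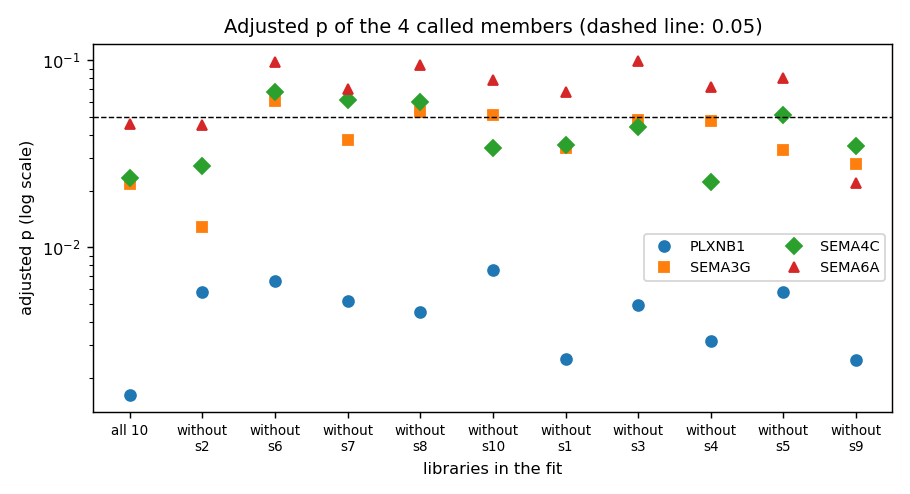
Adjusted p (vertical log axis; limma, Benjamini-Hochberg) of the 4 called genes in the fit of all 10 libraries and in the 10 fits that each left out 1 library (horizontal axis, Sham libraries first); the dashed line is 0.05. PLXNB1 stays at or below 0.00753 throughout, while SEMA6A is above the line in 8 of the 10 refits.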

How the data were processed

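The labels give 10 numbered libraries of right ventricular tissue, 5 from CTEPH and 5 from Sham pigs. They name no animal, and each library was taken as 1 pig. The authors deposited normalized log2 values, of genes with and without a symbol. Tools listed without roles in the submitters' processing notes are edgeR 3.36.0, limma 3.50.0, featureCounts, cutadapt 1.15, bcl2fastq 2.18.12 and FastQC 0.11.5, with the build Sscrofa11.1. The aligner, annotation, strand setting and handling of shared reads were not given in the sources used here, so genes with close copies are uncertain. The molecule is labelled polyA RNA and the kit is one for total RNA.

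Library medians were 9.305 to 9.308. Values below 11.17 equal quantile means over libraries of log2(2 × count + 1), so 125509 values (80.3%) were read back as whole counts, known up to a common factor, with an error of at most 5.0e-09 (tolerance 1e-06). In 11355 genes all libraries had counts, 22 of the members among them. Relative depth is a median of ratios, each a count over the gene's geometric mean count, across 10278 genes with at least 5 counts in each. Higher values gave no counts, so total depth is unknown. A shift shared by most genes cannot appear in these values, and the constant inside the logarithm compresses differences of low genes.

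Ensembl identifiers gave a symbol for 12378 genes and none for 3260. Positions are 1-based and were looked up by symbol in RefSeq's Sscrofa11.1 genes. The group test was that of limma 3.58.1 (R 4.3.3), two-sided, moderated with an intensity trend, without covariates, with Benjamini-Hochberg adjustment over all genes. The p-values measure the spread between pigs. Pairs of members of 1 class were compared by an exact permutation test of their within-library difference, a comparison added after the values were seen. The fit and the reading of counts were tested on simulated data.

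All 30 members are named. Of the other lists the text names called genes, except that cell division genes are counted only, and KDR, FLT1, FLT4, VEGFA, VEGFC, MET and ERBB2. Outside this rule it also names the uncalled gene TNNT2, and PGF, CD68, CRYAB, NCAM1 and GFRA3, uncalled and named after their values were seen. Members and lists were chosen with earlier results of these data known. Alternatives were other variance models, library weights, filters on low genes, a 1.5-fold threshold, 2 further scalings, voom on recovered counts and leaving out each library.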

Additional observations from a re-analysis of the deposited data

Results flagged for a closer look

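Each member was screened in each group of 5 libraries for a value whose gap to its nearest neighbour exceeded 0.71 of the group's range, together with relative depth, which made 62 groups. Chance flags about 1 in 20 such groups, and 3 were found. SEMA4B was at 10.37 in CTEPH library s1, with the other CTEPH libraries at 9.22 to 9.54. SEMA6B was at 7.31 in CTEPH library s9, with the others at 7.96 to 8.23. SEMA7A was at 9.67 in Sham library s10, with the others at 10.24 to 10.38, and it is the library without which SEMA7A passed.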

How the results depend on the processing

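The labels number each library once, so no library of one group shares a number with the other. No paired analysis was possible because the groups share no replicate number. The 723 called genes became 1269 with library weights and 127 when tested against a 1.5-fold change, and 401 to 961 without 1 library. The 4 called members became 0 against a 1.5-fold change and 1 with voom on recovered counts, which could test only SEMA6A of the 4, and 1 to 6 without 1 library (1 without s6 or s8, 2 without s5 or s7, 6 without s9). SEMA6A also lost its call without the intensity trend (adjusted p = 0.0736, limma with Benjamini-Hochberg). The 6 called signalling partners became 10 with library weights, 0 against a 1.5-fold change, 2 with voom, which had counts for 22 of the 40 and could not test CD44, ARF6 or CFL1, and 3 to 9 without 1 library (3 without s4, s7 or s10). Members whose groups do not overlap numbered 4 to 7 without 1 library. Pairs of members passing numbered 0 in each fit, which says nothing of stability, since at least 8 pairs would have had to pass together and no lone pair could.

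These fold changes, none of them called, changed sign without 1 library: NRP1 (-0.086 to 0.109), NRP2 (-0.017 to 0.129), PLXNA3 (-0.559 to 0.015), PLXNB2 (-0.097 to 0.231), SEMA4B (-0.170 to 0.140), SEMA4D (-0.028 to 0.230), SEMA5A (-0.042 to 0.496), SEMA6B (-0.150 to 0.086) and VEGFC (-0.089 to 0.165). With library weights SEMA6B turned to 0.057 and VEGFC to -0.106. Of the members' other values, 516 kept direction and side of the threshold. The causes were not tested. Depth limits SEMA3E, SEMA5B and PLXNB3, whose counts are low.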
